A study of Arabidopsis thaliana with 24 samples.

Results

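The effect of potassium nitrate (KNO3) supply was read from 6 libraries of root messenger RNA from Col-0 seedlings of Arabidopsis thaliana: 3 of seedlings raised on agar with 60 mM KNO3 and 3 of seedlings raised on agar with 6 mM KNO3. Both groups carried no transgene or mutation named in the labels, received mock treatment in place of the cellulose synthesis inhibitor isoxaben, stayed on their medium throughout (long-term exposure) and were harvested on day 6 after stratification. They were chosen by label from 24 libraries, of which 12 received isoxaben at 2.5 nM. Another 6 mock libraries, 3 at 60 mM and 3 at 6 mM KNO3, came from seedlings on mesh that were moved on day 5 to fresh mock medium of the same KNO3 level (shift exposure), and they serve here as a second measurement of the KNO3 contrast. The description covers the 20546 genes that passed a filter on low counts. The ratio of the KNO3 levels was 10, and nitrate, potassium and the ionic and osmotic strength of the medium changed together, so their parts cannot be told apart.

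Nitrate is the main nitrogen source of most plants and also a signal. Roots take it up through NPF and NRT2 transporters, reduce it through nitrate reductase and nitrite reductase to ammonium, or store it in the vacuole, and NIN-like proteins (NLPs) and other transcription factors adjust these genes to supply. Potassium, the accompanying cation, is the main osmotic solute of the cytosol and is moved by channels and by HKT, KUP and CHX carriers. Phosphate and sulfate uptake are known to be adjusted to nitrogen status, and salts at high level also act on water relations and on abscisic acid signalling.

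The 6 libraries held between 18902538 and 19889368 counts, and a count of 3, the most that a count of 0 allows, was worth at most 0.157 CPM (counts scaled to a common library size). This floor covers counting error only. On the first principal component, with 46.1% of the variance, the 60 mM libraries lay between 21.8 and 22.6 and the 6 mM libraries between -23.0 and -21.4. Replicates were not copies of one library: chi-square over its degrees of freedom was 3.23 to 4.02 for pairs at 60 mM and 4.89 to 7.54 for pairs at 6 mM, where counting noise alone gives about 1. The labels do not say whether replicates were separate plants or plates, so p-values measure the spread between these samples, which may be technical. All 12 root tissue markers, among them SCR, SHR, PLT1 and WER, were detected in all 6 libraries, and they summed to 327 to 349 CPM at 60 mM and 313 to 332 CPM at 6 mM. The 20 photosynthesis genes used as a check for shoot tissue summed to 498, 722 and 609 CPM at 60 mM and to 448, 418 and 411 CPM at 6 mM. Their sums did not overlap between the groups, 0 of the 20 was called by edgeR or DESeq2 (0 at an unadjusted p under 0.05), and their median log2 fold change was 0.40. Whether this difference had a part in any result below was not tested. In whole roots, fewer cells of a type and less RNA per cell cannot be told apart.

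At 60 mM KNO3, 1391 genes were called at an adjusted p under 0.05 (edgeR quasi-likelihood test), 6.77% of those tested. Of these, 581 rose (2.83%) and 810 fell (3.94%). Most changes were small: the median log2 fold change was 0.43 among genes that rose and -0.63 among genes that fell, and only 68 rises and 202 falls reached an absolute log2 fold change of 1, which is 2-fold. The median over all genes tested was -0.00. Rises were more frequent among genes with many counts, and falls were most frequent between 1 and 10 CPM, in CPM that are not divided by gene length. Of 2138 genes with a mean of 100 CPM or more, 125 rose (5.85%) and 59 fell (2.76%), whereas of 6103 genes between 1 and 10 CPM, 117 rose (1.92%) and 313 fell (5.13%). Under 1 CPM, 14 of 1727 genes rose (0.811%) and 55 fell (3.18%). Leaving out 60 mM replicate 1 lowered the number called to 921, and leaving out 60 mM replicate 3 or 6 mM replicate 3 to 887 or 894.

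**Figure D1:**
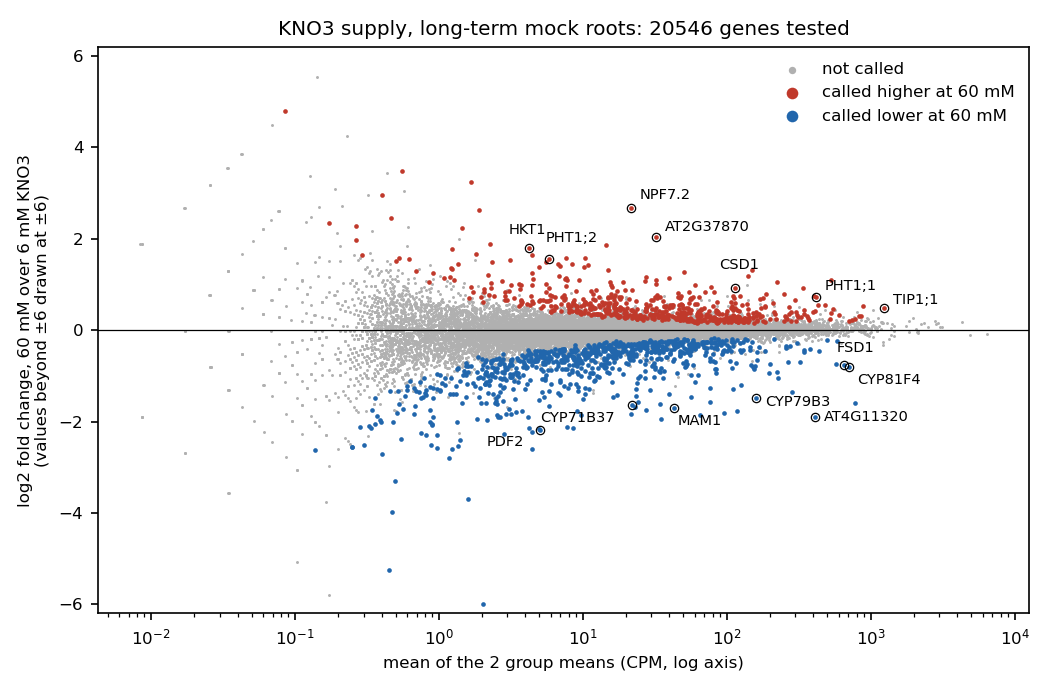
Each point is 1 of the 20546 genes tested, with the mean of both group means in CPM on a log axis against the log2 fold change at 60 mM over 6 mM KNO3. Red points are the 581 genes called higher at 60 mM, blue points the 810 called lower and grey points the rest, and circles mark genes named in the text. Falls extend further from 0 than rises at low and middle abundance.

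Nitrate carriers responded member by member. NPF7.2 (also NRT1.8, AT4G21680, chr4:11517353-11519805, minus strand), which retrieves nitrate from the xylem sap in roots, had 31.2, 42.9 and 38.2 CPM in the 60 mM libraries and 5.74, 6.12 and 5.58 CPM in the 6 mM libraries. All 60 mM libraries lay far above all 6 mM libraries, and the 6.43-fold rise was the largest among called genes that reached a mean of 5 CPM in a group and had ranges that did not overlap (a log2 fold change of 2.69 with SE 0.25, adjusted p = 2.43e-06, edgeR). NRT2.4 (AT5G60770), a high-affinity nitrate transporter known for induction by nitrogen starvation, had 0.505, 0.258 and 0.417 CPM at 60 mM and 2.17, 2.51 and 2.27 CPM at 6 mM. It fell by 2.54 on the log2 scale (SE 0.36, adjusted p = 3.31e-05). The members of the high-affinity system with many counts were not called. NRT2.1 averaged 3082 ± 426 CPM at 60 mM and 2753 ± 434 CPM at 6 mM (SD, n = 3 each; log2 fold change 0.16, SE 0.23), and its partner NRT3.1 averaged 882 ± 129 CPM at 60 mM and 810 ± 34.3 CPM at 6 mM (0.12, SE 0.16). Of 9 high-affinity genes listed 6 were tested, of which 1 rose and 1 fell (33.3% called, against 6.77% of all genes). The riser, NRT2.6, had 1.41, 3.1 and 4.58 CPM at 60 mM and 0.259, 0.470 and 0.207 CPM at 6 mM, and its adjusted p of 0.0489 lost the call without 60 mM replicate 2 (0.105) or 3 (0.178) and without 6 mM replicate 1 (0.148), 2 (0.0938) or 3 (0.162).

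Of 18 NPF, CLC and SLAC nitrate carriers tested, 5 rose and 2 fell, against 2.83% and 3.94% of all genes, and their median log2 fold change was 0.16. Of the 2 that fell 1 was called without 60 mM replicate 2 and without 6 mM replicate 2 or 3. NPF6.2 (AT2G26690), a low-affinity carrier, had 17.8, 24.9 and 20.3 CPM at 60 mM and 10.3, 11.0 and 10.4 CPM at 6 mM, with no overlap (a log2 fold change of 0.98 with SE 0.13, adjusted p = 1.32e-05). The anion channel SLAH3 averaged 71.6 ± 4.72 CPM at 60 mM and 48.4 ± 3.3 CPM at 6 mM (0.56). CLC-A, which loads nitrate into the vacuole, averaged 157 ± 10.2 CPM at 60 mM and 122 ± 4.28 CPM at 6 mM (0.36), and NPF2.9, which loads nitrate into root phloem, 124 ± 2.55 CPM at 60 mM and 99.8 ± 7.11 CPM at 6 mM (0.32). These 4 and NPF7.2 are the 5 that rose. AT3G45680, a family member without a symbol in the annotation, fell by 1.80 on the log2 scale, with 1.53 ± 0.37 CPM at 60 mM and 5.33 ± 1.03 CPM at 6 mM. NPF7.3 (NRT1.5), which loads nitrate into the xylem, had 323, 255 and 295 CPM at 60 mM and 337, 423 and 418 CPM at 6 mM (-0.43, adjusted p = 0.0126). Its call was lost without 60 mM replicate 2 (0.0857) and without 6 mM replicate 2 (0.0643) or 3 (0.0709).

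The genes of nitrate and nitrite reductase were not called. NIA1, the first nitrate reductase, averaged 1336 ± 103 CPM at 60 mM and 1447 ± 106 CPM at 6 mM (a log2 fold change of -0.12 with SE 0.17). NIA2, the second, averaged 1015 ± 88.5 CPM at 60 mM and 997 ± 68.3 CPM at 6 mM (0.03, SE 0.11), and NIR1, nitrite reductase, 732 ± 81.4 CPM at 60 mM and 722 ± 41.0 CPM at 6 mM (0.02, SE 0.13). Of 13 genes for nitrate reduction and its reductant supply 7.69% were called, near the 6.77% of all genes tested: 0 rose and 1 fell. This was AHB1, a class 1 phytoglobin, with 14.8, 11.4 and 11.3 CPM at 60 mM and 20.1, 19.9 and 21.2 CPM at 6 mM (-0.71, SE 0.10, adjusted p = 1.72e-05). Of 5 ammonium transporters tested edgeR called 0, as did DESeq2, with 0 at an unadjusted p under 0.05 and log2 fold changes from -0.14 to 0.47. Of 15 genes of glutamine, glutamate and asparagine metabolism 2 fell (13.3%), GLN1;4 and ASN3. However, GLN1;4 lost its call in each of the 6 fits without 1 library, and ASN3 in all but the one without 60 mM replicate 2.

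Among 31 regulators of nitrate responses 0 rose and 5 fell (16.1% called, against 6.77% of all genes), all by little. NLP4, a NIN-like transcription factor, averaged 48.2 ± 1.92 CPM at 60 mM and 60.4 ± 2.31 CPM at 6 mM (log2 fold change -0.33, adjusted p = 0.00113). NLP5 and NLP8 fell by 0.27 and 0.56 on the log2 scale, while NLP7, the most studied member, was not called (-0.19, SE 0.07). HRS1, a GARP transcription factor that joins nitrate and phosphate signals, averaged 40.8 ± 1.77 CPM at 60 mM and 57.1 ± 4.30 CPM at 6 mM (-0.49). The fifth was CIPK23, a kinase that acts on nitrate and potassium transporters, at -0.25, with the call lost without 6 mM replicate 3 (adjusted p = 0.0529). In a fit of only the 6 libraries, 8 of the 31 fell. That fit called 1091 genes lower in all, against 810 in the main fit. Of 13 nitrogen status peptides and class III glutaredoxins tested, 2 fell (15.4%). These were the glutaredoxin AT1G06830 (2.74 ± 0.625 CPM at 60 mM and 5.86 ± 1.324 CPM at 6 mM, -1.09) and the peptide gene CLE2 (-1.03). The call of CLE2 was lost without 60 mM replicate 1 (adjusted p = 0.0660).

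Among cation carriers the sodium transporter gene HKT1 (AT4G10310, chr4:6391854-6395922, plus strand), known for retrieving sodium from the xylem, had the largest rise above the counting floor. It had 5.61, 8.01 and 6.197 CPM at 60 mM and 1.86, 2.09 and 1.76 CPM at 6 mM, without overlap (a log2 fold change of 1.79 with SE 0.23, adjusted p = 8.78e-06, edgeR). CHX17 (AT4G23700), a cation/proton exchanger of endomembranes, had 7.43, 11.6 and 9.43 CPM at 60 mM and 21.0, 25.6 and 28.99 CPM at 6 mM, and fell by 1.41 on the log2 scale (SE 0.23, adjusted p = 0.000494). Of 32 potassium transport genes tested 4 rose and 1 fell (15.6% called, against 6.77% of all genes). The 4 included KAT1, a channel gene counted in none of the 6 mM libraries and at 0.152, 0.0517 and 0.312 CPM at 60 mM, too near the floor for a fold change. Of the 4 rises, 2 kept their call without 60 mM replicate 1 and without 6 mM replicate 1, 2 or 3. The inward potassium channel AKT1 and the sodium exporter SOS1 were not called (-0.11 and 0.15), and HAK5, the high-affinity potassium carrier induced by potassium starvation, was at or under 0.16 CPM in each of the 6 libraries.

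The phosphate transporter genes PHT1;1, PHT1;2 and PHT1;4 rose. PHT1;1 (AT5G43350), the main phosphate transporter of the root surface, had 523, 509 and 529 CPM at 60 mM and 317, 319 and 303 CPM at 6 mM (a log2 fold change of 0.73 with SE 0.15, adjusted p = 0.00496). PHT1;2 (AT5G43370, chr5:17415698-17417972, plus strand) had 8.99, 8.73 and 8.59 CPM at 60 mM and 3.21, 2.93 and 2.79 CPM at 6 mM (1.56, SE 0.17, adjusted p = 1.47e-06). In both, replicates of a group lay close together and the groups were well apart. However, 42.5% and 45.6% of the 50-base windows of their exons occur again at another place in the genome, so reads could have been split between them. PHT1;4, whose windows do not recur, had 80.3, 75.5 and 85.0 CPM at 60 mM and 47.2, 52.6 and 46.3 CPM at 6 mM (0.72, SE 0.10, adjusted p = 2.15e-05). PHO2 (AT2G33770), the ubiquitin-conjugating enzyme that lowers the amount of phosphate transporters, had 224, 268 and 250 CPM at 60 mM and 415, 413 and 384 CPM at 6 mM, and fell by 0.71 on the log2 scale (SE 0.07, adjusted p = 3.11e-07). PAP17, a purple acid phosphatase induced by phosphate starvation, averaged 9.56 ± 0.25 CPM at 60 mM and 4.17 ± 0.55 CPM at 6 mM (1.197). Of 26 phosphate genes tested 5 rose and 2 fell (26.9% called, against 6.77% of all genes), with a median log2 fold change of 0.22. The other member that fell, the galactolipid synthase gene MGD2 (-0.67), lost its call in 4 fits without 1 library: 60 mM replicate 1 or 3, and 6 mM replicate 1 or 3. SPX1 and IPS1, 2 usual reporters of phosphate starvation, were not called (0.36 and 0.62).

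In sulfate assimilation the 3 adenosine phosphosulfate reductases split: APR2 (0.30, adjusted p = 0.00366) and APR3 (0.35, adjusted p = 0.000276) rose, and APR1 fell by 0.39 on the log2 scale (with an adjusted p = 0.00103). APR3, for example, had 109, 117 and 107 CPM at 60 mM and 83.3, 87.4 and 91.3 CPM at 6 mM. SULTR1;2, the main sulfate uptake carrier of roots, had 364, 368 and 359 CPM at 60 mM and 231, 250 and 211 CPM at 6 mM (0.66, adjusted p = 0.0143), and lost its call without 6 mM replicate 1, at an adjusted p that rounds to the threshold (0.05), or 3 (0.0741). Of 21 sulfur genes 4 rose and 1 fell (23.8% called, against 6.77% of all genes), and 2 rose without either of those libraries. Among 30 iron deficiency genes 1 rose and 1 fell, near the background shares, and the fall was lost without 60 mM replicate 2 or 3 and without 6 mM replicate 1 or 2. FIT, the transcription factor that drives iron uptake, averaged 115 ± 4.45 CPM at 60 mM and 85.6 ± 3.05 CPM at 6 mM (0.42).

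**Figure D2:**
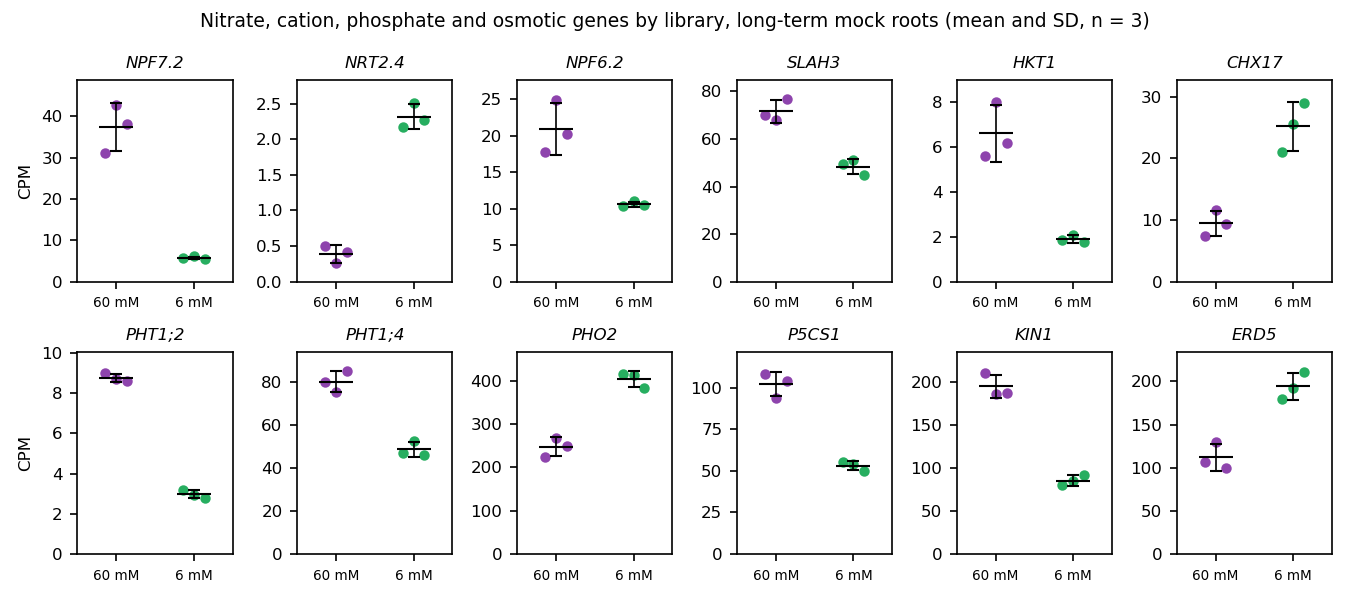
Points are CPM in single long-term mock libraries, 60 mM KNO3 on the left and 6 mM on the right of each panel, with the mean and SD (n = 3) and an axis from 0. NPF7.2, NPF6.2, SLAH3, HKT1, PHT1;2, PHT1;4, P5CS1 and KIN1 were higher in every 60 mM library than in any 6 mM library, and NRT2.4, CHX17, PHO2 and ERD5 were lower. The genes shown were picked from those called, so this describes them and not their lists.

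Of 34 osmotic and abscisic acid genes tested 6 rose and 4 fell, 29.4% called against 6.77% of all genes (median log2 fold change -0.01). In shift roots 4 rose and 4 fell, against 3.32% and 4.88% of all genes. P5CS1 (AT2G39800), which catalyses the rate-limiting step of proline synthesis, had 108, 94.0 and 104 CPM at 60 mM and 55.3, 54.3 and 50.1 CPM at 6 mM (a log2 fold change of 0.94 with SE 0.08, adjusted p = 1.41e-08, edgeR). ERD5 (AT3G30775), a proline oxidase, had 107, 129 and 99.7 CPM at 60 mM and 180, 193 and 211 CPM at 6 mM, and fell by 0.80 on the log2 scale (SE 0.12, adjusted p = 0.000255). KIN1, a cold and abscisic acid induced gene, averaged 195 ± 13.7 CPM at 60 mM and 85.3 ± 6.10 CPM at 6 mM (1.19). The abscisic acid receptor gene PYL6 averaged 14.6 ± 1.00 CPM at 60 mM and 32.8 ± 4.42 CPM at 6 mM (-1.16), and RD22, a dehydration responsive gene, 5.46 ± 1.54 CPM at 60 mM and 12.9 ± 0.79 CPM at 6 mM (-1.24). The number of the 34 that rose was 3 without 60 mM replicate 3 and without 6 mM replicate 1 or 2.

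Of 26 aquaporins tested, the water channels of plasma and vacuolar membranes, 10 rose and 1 fell in long-term roots. This was 42.3% called, against 6.77% of all genes, with a median log2 fold change of 0.24. In shift roots 3 rose and 3 fell, against 3.32% and 4.88% of all genes, with a median of -0.05. The interaction called 0 of the 26, but only 0.0535% of all genes, so the 0 does not set aquaporins apart. The long-term fall, of PIP2;8, lost its call in each of the 6 fits without 1 library. TIP1;1, the one with the most counts of the 10, had 1338, 1536 and 1473 CPM at 60 mM and 1068, 1112 and 938 CPM at 6 mM (0.48, SE 0.09, adjusted p = 0.00139). PIP2;6 had 25.1, 20.1 and 21.3 CPM at 60 mM and 11.3, 12.5 and 13.0 CPM at 6 mM (0.85, SE 0.12, adjusted p = 3.58e-05), and TIP4;1 averaged 244 ± 10.8 CPM at 60 mM and 192 ± 18.2 CPM at 6 mM (0.35). PIP2;2 averaged 634 ± 44.8 CPM at 60 mM and 458 ± 22.9 CPM at 6 mM (0.47), and 14.7% of its exon windows recur elsewhere. Without 60 mM replicate 2 or without 6 mM replicate 3, 6 aquaporins were called higher.

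Glucosinolates are sulfur-rich defence compounds of the cabbage family, made from tryptophan (indole branch) or methionine (aliphatic branch). Of 24 genes of tryptophan-derived indole metabolism tested, which also include camalexin and tryptophan synthesis, 12 fell and 0 rose. This was 50% called, against 6.77% of all genes, with a median log2 fold change of -0.32. In shift roots 10 fell and 1 rose, against 4.88% and 3.32% of all genes. Leaving out 1 library or changing the scaling left 10 to 13 called lower. CYP79B3 (AT2G22330), which makes indole-3-acetaldoxime, had 77.1, 91.9 and 85.9 CPM at 60 mM and 271, 222 and 216 CPM at 6 mM (-1.48, SE 0.12, adjusted p = 1.89e-07, edgeR). CYP79B2, which catalyses the same step, had 139, 156 and 155 CPM at 60 mM and 282, 244 and 221 CPM at 6 mM (-0.73, adjusted p = 5.63e-05). No 60 mM library reached the lowest 6 mM library in either gene. The next enzyme, CYP83B1, averaged 366 ± 29.3 CPM at 60 mM and 504 ± 44.9 CPM at 6 mM (-0.46). CYP81F4, which modifies the indole ring and had the most counts of the 12, averaged 514 ± 30.1 CPM at 60 mM and 905 ± 70.3 CPM at 6 mM (-0.82). CYP81F2, which acts on the ring at another position, averaged 4.15 ± 0.28 CPM at 60 mM and 14.1 ± 1.37 CPM at 6 mM (-1.76). ASA1, at the entry of tryptophan synthesis, fell by 0.40 on the log2 scale. CYP71A12, of the camalexin branch, had 1.11, 1.14 and 1.51 CPM at 60 mM and 13.2, 4.50 and 5.06 CPM at 6 mM, the largest fall by the naming rule (-2.60, adjusted p = 0.0175). It lost its call without 60 mM replicate 1 (0.0702), 2 (0.0682) or 3 (0.0537) and without 6 mM replicate 1 (0.109).

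The branch that starts from methionine was listed only after its values had been seen, so its count is a description. Of 19 aliphatic genes tested 14 fell and 0 rose (73.7% called, against 6.77% of all genes), with a median log2 fold change of -0.84. Without 6 mM replicate 1 the calls of CYP79F2, FMO GS-OX1, IIL1 and SOT18 were lost (adjusted p = 0.0763, 0.16, 0.0603 and 0.0543, edgeR). CYP79F2 and FMO GS-OX1 each lost the call in 4 fits without 1 library, and SOT18 in 2. MAM1 (AT5G23010), which extends the methionine side chain, had 16.6, 23.0 and 20.4 CPM at 60 mM and 74.9, 60.0 and 61.9 CPM at 6 mM (-1.71, SE 0.25, adjusted p = 0.000333). BCAT4, which starts that cycle, had 59.2, 71.7 and 64.3 CPM at 60 mM and 164, 165 and 144 CPM at 6 mM (-1.28, adjusted p = 2.50e-05). BAT5, a carrier that moves the chain-elongation intermediates, averaged 23.9 ± 2.57 CPM at 60 mM and 45.3 ± 2.1 CPM at 6 mM (-0.92), and CYP83A1, of core synthesis, 78.7 ± 1.73 CPM at 60 mM and 141 ± 16.2 CPM at 6 mM (-0.84). MYB28, the main transcription factor of this branch, averaged 44.9 ± 3.2 CPM at 60 mM and 65.7 ± 4.29 CPM at 6 mM (-0.55). In shift libraries 9 of the 19 fell and 0 rose, against 4.88% and 3.32% of all genes. The interaction test called 0 of the 19, and only 0.0535% of all genes.

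**Figure D3:**
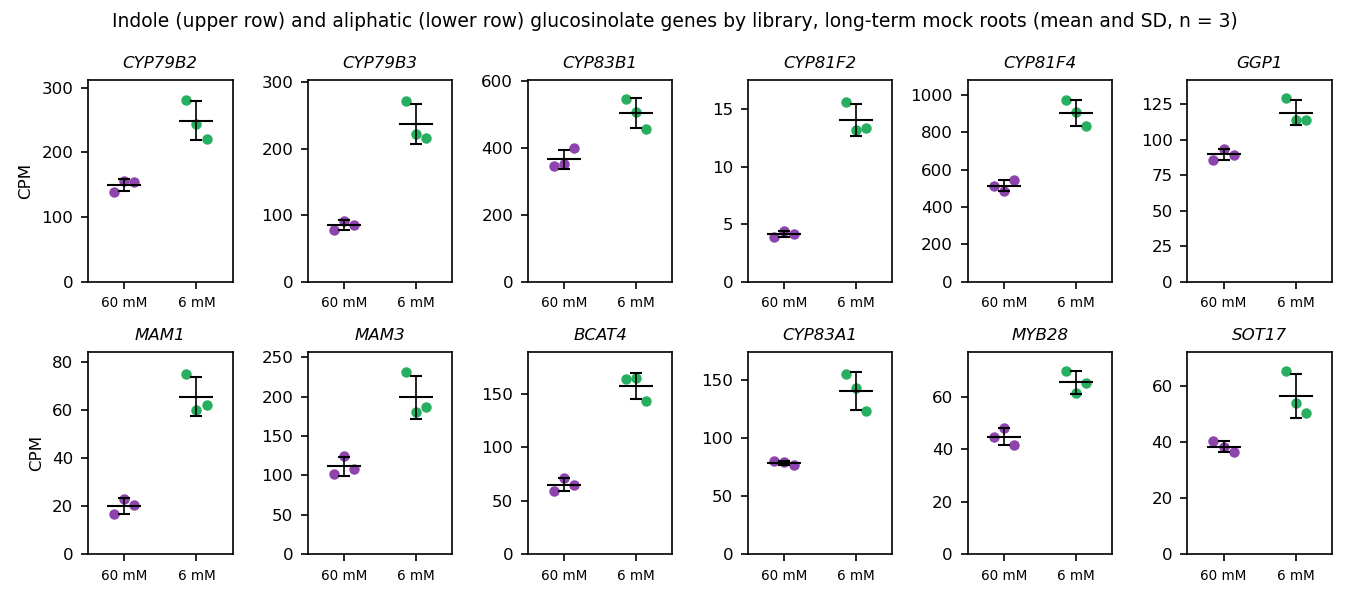
Points are CPM in single long-term mock libraries for 6 indole genes (upper row) and 6 aliphatic genes (lower row), 60 mM KNO3 on the left and 6 mM on the right, with the mean and SD (n = 3) and an axis from 0. In each of the 12 panels all 60 mM libraries lie below all 6 mM libraries. The 12 genes were picked from those called lower, so this describes them and not the lists.

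Of 22 secondary wall and xylem genes 10 rose and 0 fell (45.5% called, against 6.77% of all genes). The median log2 fold change was 0.22 and the largest 0.50. LAC4, a laccase of lignin polymerisation, had 113, 128 and 132 CPM at 60 mM and 86.3, 94.0 and 85.0 CPM at 6 mM (0.49, SE 0.09, adjusted p = 0.00104). IRX9, a xylan synthesis gene, had 27.8, 28.2 and 28.3 CPM at 60 mM and 21.8, 22.8 and 22.0 CPM at 6 mM (0.34, SE 0.07, adjusted p = 0.00362). These 2 were the only ones of the 10 that kept their call in all alternatives tried on single genes, which asked for no minimum fold. Fits that left out 60 mM replicate 2 or 3 kept 4 or 2 of the 10 calls, and fits that left out 6 mM replicate 1, 2 or 3 kept 4, 4 or 2. Of 25 genes of suberin and of the Casparian strip, the lignin band that seals the endodermis, 5 rose and 0 fell (20% called, median 0.28). CASP4, a scaffold protein of the strip, averaged 60.7 ± 6.43 CPM at 60 mM and 36.3 ± 3.48 CPM at 6 mM (0.74), and CASP2, another, 130 ± 9.00 CPM at 60 mM and 85.0 ± 6.00 CPM at 6 mM (0.62). In that list 13 rose in a fit of only the 6 libraries. That fit called 851 genes higher in all, against 581 in the main fit. In the main fit's list, 3 of the rises were kept without 60 mM replicate 2 or 3, and 2 without 6 mM replicate 3. None of the 22 secondary wall genes was called in shift libraries, where 8.2% of all genes were. None differed between the exposures by the interaction test, which called only 0.0535% of all genes. Primary wall cellulose synthesis had 1 rise of 12 (8.33%, near the share of all genes), lost without 60 mM replicate 3 and without 6 mM replicate 2 or 3.

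The outer cell layer was described by a list chosen after values were seen. Of 22 cuticle and protoderm genes tested 9 fell and 1 rose (45.5% called, against 6.77% of all genes), with a median log2 fold change of -0.38. The rise was lost without 60 mM replicate 2 or 3 and without 6 mM replicate 1 or 3. Among the falls, that of BDG was lost in each of the 6 fits without 1 library, and that of HTH without replicate 2 of either group. PDF2 (AT4G04890, chr4:2476390-2482447, minus strand), a homeodomain factor of epidermal identity, had 2.32, 1.29 and 1.87 CPM at 60 mM and 7.66, 8.57 and 8.73 CPM at 6 mM (-2.18, SE 0.26, adjusted p = 8.36e-06, edgeR). PDF1, a protoderm gene, had 16.8, 14.9 and 19.1 CPM at 60 mM and 40.7, 71.0 and 44.9 CPM at 6 mM (-1.63, adjusted p = 0.00521). CER5 and ABCG11, which export cuticular lipids, averaged 2.56 ± 0.76 and 3.34 ± 0.12 CPM at 60 mM, against 7.42 ± 0.80 and 7.01 ± 0.25 CPM at 6 mM. ATML1, the partner of PDF2, fell by 1.98 on the log2 scale and lost its call without 60 mM replicate 1 (adjusted p = 0.0543). These genes are known mainly from shoots, and the photosynthesis sum given above was higher at 60 mM; its part in these falls was not tested. Of 28 root hair genes 2 fell (7.14%, near the 6.77% of all genes called). Of 28 cell division genes edgeR called 0, as did DESeq2, with 3 at an unadjusted p under 0.05 and log2 fold changes from -0.35 to 0.09. One of the root hair calls was lost without 60 mM replicate 2 and without 6 mM replicate 1 or 3.

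Hormone lists differed in the share of genes called, against 6.77% of all genes tested. The share was 21.4% for auxin, 33.3% for salicylate and pipecolate, 8.33% for ethylene and 5.56% for jasmonate. Of 23 cytokinin genes edgeR called 0, as did DESeq2, with 3 at an unadjusted p under 0.05. In the auxin list 1 rose and 5 fell of 28. TAR2, a tryptophan aminotransferase of auxin synthesis, averaged 7.19 ± 0.69 CPM at 60 mM and 13.4 ± 0.89 CPM at 6 mM (-0.90), and PIN5, an auxin carrier of the endoplasmic reticulum, 5.54 ± 0.67 CPM at 60 mM and 9.91 ± 0.80 CPM at 6 mM (-0.84). The number that fell was 3 without 60 mM replicate 1, and the rise was lost without that library, 60 mM replicate 3 and 6 mM replicate 2 or 3. ACO1, an ethylene-forming enzyme, was the only call among 12 ethylene genes (10.2 ± 0.74 CPM at 60 mM and 18.2 ± 0.53 CPM at 6 mM, -0.84). Of 18 jasmonate genes 1 fell, a call lost without replicate 1 of either group, and of 12 flavonoid genes edgeR called 0, with 2 at an unadjusted p under 0.05, and DESeq2 called 1. In the salicylate and pipecolate pathways 2 rose and 2 fell of 12. ALD1, which starts pipecolate synthesis, had 6.92, 10.3 and 7.34 CPM at 60 mM and 3.47, 2.67 and 2.58 CPM at 6 mM (1.49, SE 0.21, adjusted p = 2.57e-05), and it was the only one of the 4 to keep its call in all alternatives. Of 9 trehalose-phosphate phosphatase genes tested TPPH fell (11.1% called), by 1.25 on the log2 scale.

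**Figure D4:**
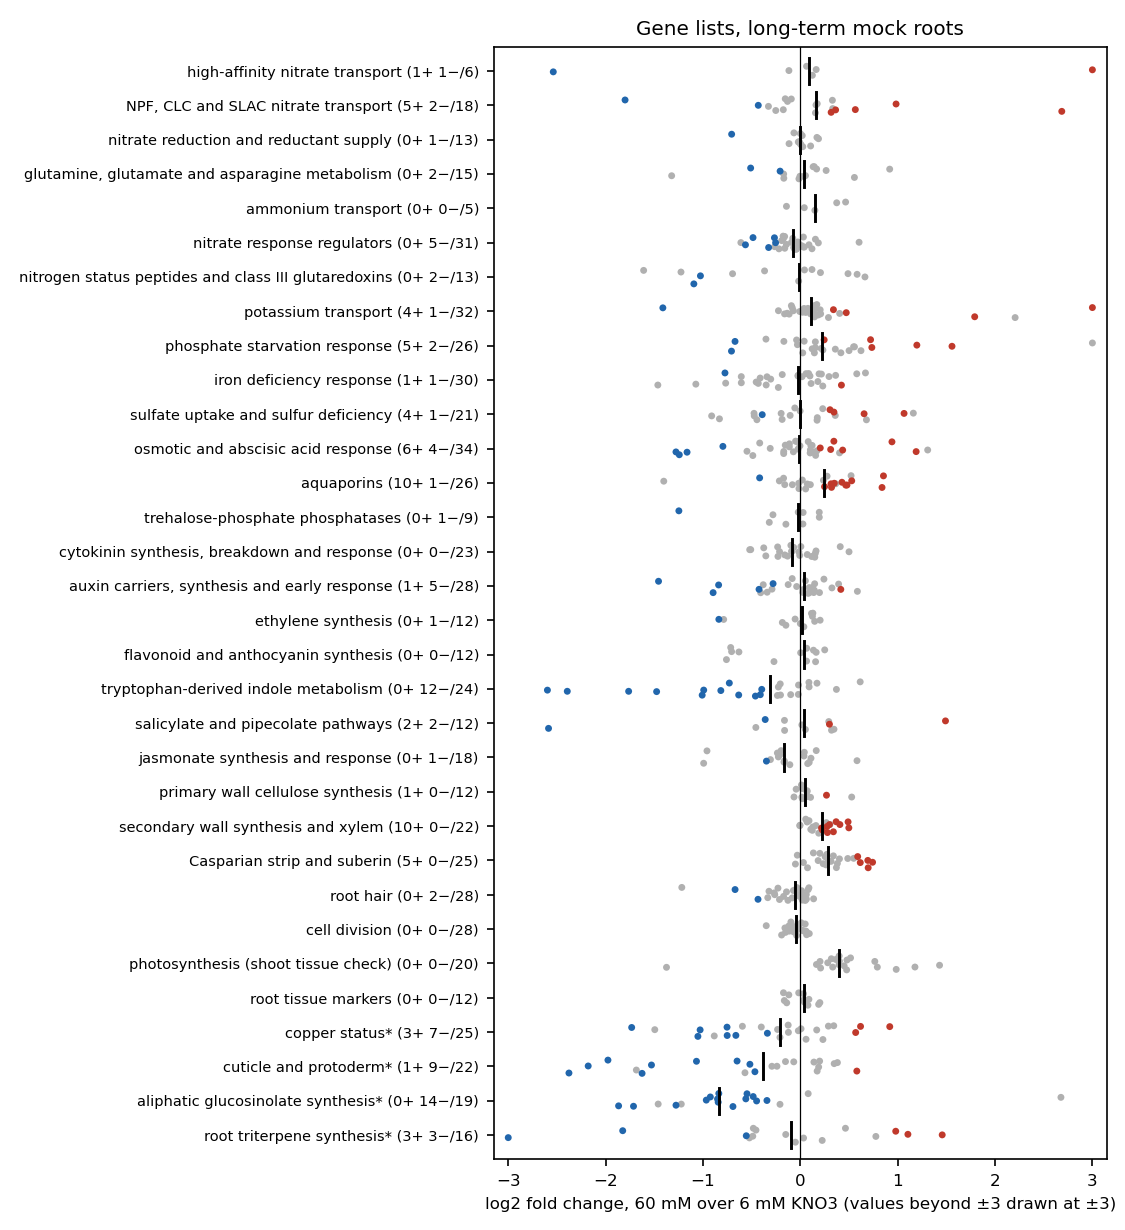
Each point is 1 gene tested, placed by its log2 fold change at 60 mM over 6 mM KNO3, red where called higher, blue where called lower and grey otherwise. Black bars are list medians, the brackets give the genes called higher (+) and lower (−) of those tested, and an asterisk marks the 4 lists chosen after values were seen. The points of both glucosinolate lists lie mostly left of 0, and those of secondary wall, Casparian strip and aquaporin genes mostly right of 0.

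Outside these lists, the smallest adjusted p belonged to AT2G37870 (chr2:15859204-15859942, plus strand), which encodes a lipid-transfer-like protein. It had 58.5, 50.9 and 46.5 CPM at 60 mM and 10.7, 14.8 and 12.7 CPM at 6 mM (a log2 fold change of 2.03 with SE 0.12, adjusted p = 1.65e-10, edgeR). The next was CYP71B37 (AT3G26330), a cytochrome P450 of unknown function, with 8.89, 11.4 and 11.9 CPM at 60 mM and 35.4, 32.7 and 31.7 CPM at 6 mM (-1.64, SE 0.11, adjusted p = 2.49e-10). AK3, an aspartate kinase at the start of the synthesis of threonine, methionine and lysine, averaged 45.2 ± 2.29 CPM at 60 mM and 109 ± 11.5 CPM at 6 mM (-1.27). The ranges of the groups did not meet in any of the 3.

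Other large rises were in PIRL8, an intracellular leucine-rich repeat protein (22.8 ± 3.01 CPM at 60 mM and 6.23 ± 0.52 CPM at 6 mM), in GSL09, similar to callose synthase (6.72 ± 1.1 CPM at 60 mM and 2.126 ± 0.38 CPM at 6 mM), and in AT3G02620, a stearoyl-acyl-carrier-protein desaturase (15.6 ± 1.69 CPM at 60 mM and 5.19 ± 1.28 CPM at 6 mM). E12A11 (MOTHER OF FT AND TFL1), known from abscisic acid responses of seeds, averaged 11.5 ± 3.11 CPM at 60 mM and 3.86 ± 0.37 CPM at 6 mM (1.58). AT5G62420, an oxidoreductase, and AT2G45360, of unknown function, rose with log2 fold changes of 1.42 and 1.45. Among root triterpene genes, a list chosen after values were seen, 3 rose and 3 fell of 16 (37.5% called, against 6.77% of all genes). The median log2 fold change of the list was -0.10, with values from -5.24 to 1.46. LUP5, PEN3 (AT5G36150) and LUP2 were the 3 that fell, and each kept its call in all alternatives. MRN1, marneral synthase, had 9.24, 9.09 and 11.4 CPM at 60 mM and 5.48, 3.87 and 1.45 CPM at 6 mM (1.46, adjusted p = 0.0155), and its call was lost without 60 mM replicate 3 (0.0648) or 6 mM replicate 3 (0.0605). CYP705A1 and CYP702A5, cytochrome P450 genes, rose with log2 fold changes of 1.11 and 0.98.

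Of the large falls, the one with the most counts was AT4G11320, a papain family cysteine protease, with 160, 166 and 196 CPM at 60 mM and 794, 592 and 572 CPM at 6 mM (a log2 fold change of -1.91 with SE 0.26, adjusted p = 0.000144). AT5G64120 (peroxidase 71), a wall-bound peroxidase linked to lignification, had 28.4, 25.8 and 30.8 CPM at 60 mM and 93.2, 111 and 103 CPM at 6 mM (-1.85). The receptor-like kinase AT5G49770 averaged 1.56 ± 0.14 CPM at 60 mM and 7.38 ± 0.98 CPM at 6 mM (-2.24). The neighbouring O-methyltransferase genes AT1G77520 and AT1G77530 fell together, to 4.19 ± 0.40 and 2.896 ± 0.04 CPM at 60 mM, against 15.2 ± 4.82 and 12.6 ± 3.37 CPM at 6 mM. The glycine-rich protein genes GRP5 and AT4G29020 fell by 2.16 and 1.90 on the log2 scale, the cupin gene AT5G38940 by 2.14 and AT1G64370, annotated as filaggrin-like, by 2.14. AT4G23680, a lipid transport superfamily protein, averaged 14.3 ± 2.14 CPM at 60 mM and 55.5 ± 15.1 CPM at 6 mM (-1.95). AT4G01390, a TRAF-like protein chosen after its values were seen, had no count in any 60 mM library and 2.64, 4.6 and 4.91 CPM in the 6 mM libraries, which makes it at least 25.9-fold lower at 60 mM against a floor of 3 counts per library.

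Annotated product families with at least 30 genes tested gave a wider view, looked at without a prior choice of families. Those given are the families with the highest shares called in these same data, so their counts are a description. GDSL-like lipases had 12 falls and 0 rises of 44 genes, 27.3% called against 6.77% of all genes. Pectin lyase-like genes, which act on wall pectin, showed the opposite balance, with 12 rises and 1 fall of 53 (24.5%). MATE efflux proteins had 4 rises and 6 falls of 42 (23.8%), and nodulin MtN21-like transporters 6 rises and 2 falls of 37 (21.6%). Lipid-transfer-like proteins, the family of AT2G37870, had 9 rises and 3 falls of 49 (24.5%), and class III peroxidases 6 rises and 6 falls of 54 (22.2%). Heavy metal transport and detoxification proteins had 0 rises and 7 falls of 36 (19.4%). In the family annotated as UPF0497, which holds the CASP proteins and their relatives, 5 rose and 2 fell of 36 (19.4%).

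The same KNO3 contrast was measured in the shift libraries, which share no library with the long-term groups. There 1685 genes were called (8.2%), 682 higher (3.32%) and 1003 lower (4.88%), and 1031 in all without 6 mM shift replicate 3. Of the 581 genes that rose in long-term roots 555 had a positive log2 fold change in shift roots, and of the 810 that fell 775 had a negative one. The share of all genes tested with the same sign in both exposures was not computed. Genes called in both exposures made up 54.6% of the long-term and 45.1% of the shift calls. NPF7.2, HKT1, PHT1;2, P5CS1, CYP79B3 and AT2G37870 had log2 fold changes of 3.2, 1.22, 1.56, 0.73, -1.36 and 2.1 in shift roots, each called. Other genes named above were not called there, among them MRN1 (1.01, adjusted p = 0.159, edgeR) and AT1G77520 (-1.15, adjusted p = 0.0663). The difference between the exposures was tested directly as an interaction, which called 11 genes (0.0535%), 3 with a more positive (0.0146%) and 8 with a more negative (0.0389%) log2 fold change in long-term roots. At an unadjusted p under 0.05 there were 1187, and DESeq2 called 28. Leaving out 60 mM long-term replicate 2 or 3 left 7 and 6.

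Of the 11 genes 9 are in a list of 25 genes of copper status. That list was chosen after values were seen, so the 9 is a description and not a test. Plants with little copper are known to replace copper/zinc superoxide dismutase by the iron enzyme, and the microRNA miR398 then lowers the transcripts of the copper/zinc enzymes CSD1 and CSD2 and of their copper chaperone CCS. CSD1 (AT1G08830, chr1:2827060-2829315, plus strand) had 135, 154 and 162 CPM at 60 mM and 78.5, 78.9 and 81.0 CPM at 6 mM in long-term roots. In shift roots it had 65.0, 57.8 and 47.5 CPM at 60 mM and 95.2, 90.1 and 90.2 CPM at 6 mM. Its log2 fold change was therefore 0.92 in long-term and -0.69 in shift roots, a difference of 1.61 (SE 0.13, adjusted p = 1.13e-07, edgeR). CSD2 rose with 0.62 in long-term roots and fell by 0.40 on the log2 scale in shift roots (difference 1.02, adjusted p = 0.00026), and CCS rose with 0.57 and fell by 0.35 (difference 0.91, adjusted p = 0.00033). The iron enzyme gene FSD1 (AT4G25100) had an interaction of the opposite sign (difference -0.99, SE 0.12, adjusted p = 0.000151, edgeR). It had 532, 454 and 486 CPM at 60 mM and 818, 864 and 796 CPM at 6 mM in long-term roots. In shift roots it had 731, 786 and 652 CPM at 60 mM and 530, 657 and 657 CPM at 6 mM, and these ranges overlapped. Its log2 fold change was -0.75 in long-term roots (called) and 0.23 in shift roots (not called, adjusted p = 0.103, edgeR).

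The mature miR398 arms that pair with CSD transcripts, and the stretch of CSD1 that pairs with them, are shown because CSD1 gave the clearest difference between the exposures. They were read from the RefSeq annotation of assembly TAIR10.1. In the microRNAs capitals mark the seed, bases 2 to 8, which miR398a, b and c share, and the mature arms of b and c are identical. In the CSD1 transcript, whose stretch lies in the 5′ UTR, runs across an intron and spans chr1:2827177-2827685 on the plus strand, capitals mark bases that pair with miR398b, G:U pairs included.
miR398a-3p: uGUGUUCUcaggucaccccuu
miR398b-3p and miR398c-3p: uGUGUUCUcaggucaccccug
CSD1 transcript: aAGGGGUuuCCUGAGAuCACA
The pairing was ungapped and left 4 of 21 bases unpaired. As few mismatches were found somewhere in the transcripts of 8.1% of 20068 genes scanned, so the match alone is not specific to CSD1.

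The precursor transcripts of these microRNAs were counted at low level. MIR398B, with the most counts of the pair that encodes the same mature arm, had 2.93, 2.84 and 3.12 CPM at 60 mM and 3.05, 5.18 and 5.22 CPM at 6 mM in long-term roots, and 4.68, 3.80 and 4.88 CPM at 60 mM and 3.43, 6.16 and 2.904 CPM at 6 mM in shift roots. The groups overlapped, and neither contrast (-0.59, adjusted p = 0.267, and 0.10, adjusted p = 0.899) nor the interaction (adjusted p = 0.902) was called. MIR398C, near or under the counting floor in several libraries, had 0.202, 0.103 and 0.104 CPM at 60 mM and 0.466, 0.314 and 0.413 CPM at 6 mM in long-term roots, and 0.640, 0.600 and 0.986 CPM at 60 mM and 0.392, 0.293 and 0.145 CPM at 6 mM in shift roots. Its log2 fold change was not called in long-term roots (-1.49, adjusted p = 0.116) and was called in shift roots (1.4, adjusted p = 0.0343), while the interaction was not called (adjusted p = 0.201). MIR408, another microRNA known from copper shortage, had 4.04, 2.95 and 4.11 CPM at 60 mM and 6.26, 8.05 and 6.2 CPM at 6 mM in long-term roots, and 9.65, 9.20 and 8.14 CPM at 60 mM and 6.28, 4.99 and 4.65 CPM at 6 mM in shift roots. The ranges did not overlap in either exposure, but neither contrast nor the interaction passed (adjusted p = 0.113 in long-term roots, 0.12 in shift roots and 0.388 for the interaction). Poly(A) libraries count unprocessed precursors, not mature microRNAs.

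Of the copper list, COPT2, FRO5 and AT1G71200 fell in long-term roots. COPT2 (AT3G46900), a copper transporter, had 26.1, 16.3 and 19.4 CPM at 60 mM and 36.1, 49.2 and 40.9 CPM at 6 mM (-1.03, adjusted p = 0.000376). FRO5, a metal reductase, had 176, 132 and 134 CPM at 60 mM and 311, 321 and 284 CPM at 6 mM (-1.05, adjusted p = 0.00122), and the bHLH factor AT1G71200 1.41, 1.03 and 1.82 CPM at 60 mM and 4.45, 5.49 and 4.29 CPM at 6 mM (-1.73, adjusted p = 2.26e-05). In shift roots their log2 fold changes were 0.40, 0.62 and 0.28, of which that of FRO5 was called. Of the 25 copper genes 3 rose and 7 fell in long-term roots (40% called, against 6.77% of all genes). In shift roots 4 rose and 3 fell, against 3.32% and 4.88% of all genes. SPL7, the copper-sensing transcription factor, was not called in either exposure (0.17 and 0.13), nor was the copper transporter COPT1 (0.23 and 0.22). Of the 7 long-term falls, that of FRO4 was lost without 60 mM replicate 2 or 3 and without 6 mM replicate 1, 2 or 3. That of CCH was lost without 60 mM replicate 2.

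**Figure D5:**
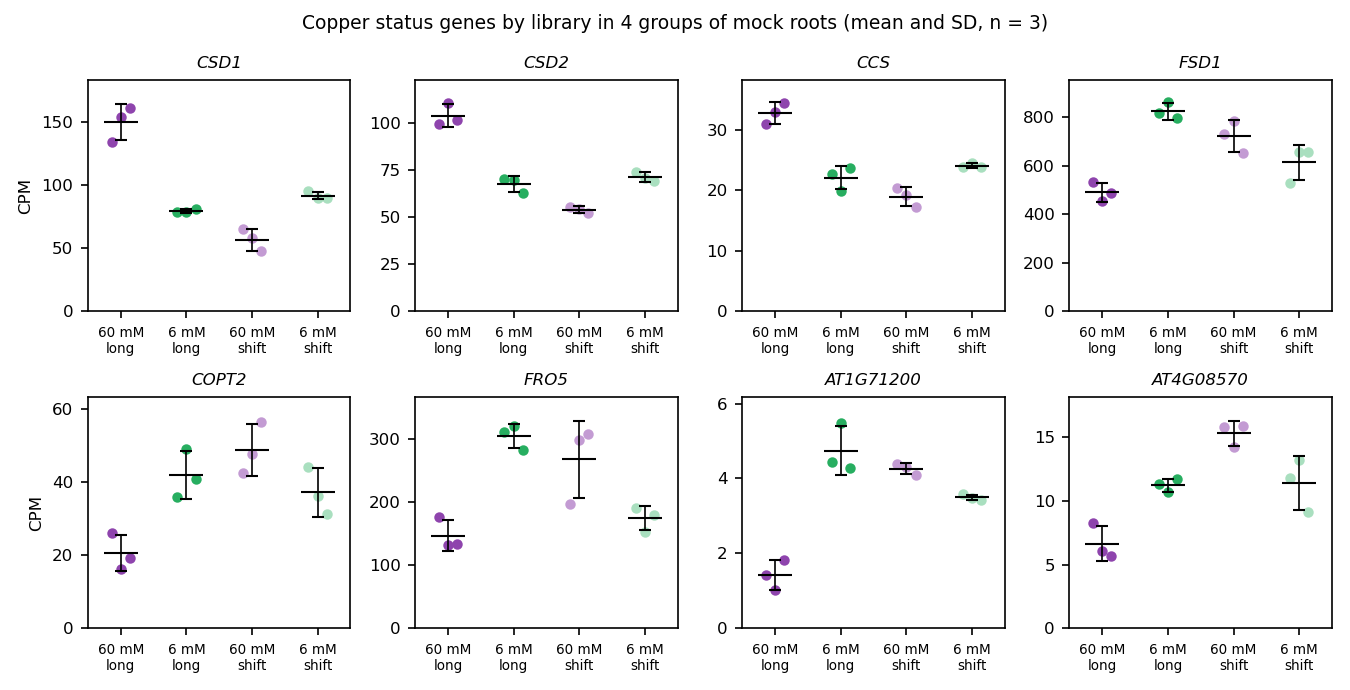
Points are CPM in single mock libraries, from left to right 60 mM and 6 mM KNO3 long-term and 60 mM and 6 mM KNO3 shift, with the mean and SD (n = 3) and an axis from 0. CSD1, CSD2 and CCS lie higher at 60 mM than at 6 mM in long-term roots and lower in shift roots, and FSD1, COPT2, FRO5, AT1G71200 and AT4G08570 lie lower at 60 mM in long-term roots.

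Counts of some genes named above are uncertain because a gene is annotated on the opposite strand of the same stretch and the use of strand in counting is not given in the sources used here. These are NPF7.2, NPF6.2, NPF7.3, NPF2.9, CLC-A, NLP4, NLP5, APR1, APR2, APR3, PAP17, P5CS1, AKT1, AK3, CSD1, CYP81F4, ASA1, BCAT4, ABCG11, E12A11, AT2G45360, AT5G62420, AT1G77530, AT4G01390, YSL2, MIR398B and MIR408. In all, 5732 genes tested and 295 genes called had such a neighbour.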

How the data were processed

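Libraries were made from poly(A) RNA of roots for DNBSEQ sequencing (per the labels' protocols). The authors deposited raw counts per gene, whole numbers with 1 column per library, made with STAR 2.7.9a on build TAIR10, per the submitters' processing notes, which also list DESeq2 1.32.0. Annotation, strand setting, trimming and multi-mapped reads are not given in the sources used here. A second deposited table of normalised values was not used here.

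From the counts, 20546 of 32833 genes passed filterByExpr with the 8 groups of the series and held 99.96% of counts. All 24 libraries entered 1 fit of 8 group means in edgeR 4.0.16 (R 4.3.3; TMM scaling, robust quasi-likelihood F test, 16 residual degrees of freedom), so all groups share the estimate of spread. The SE of a log2 fold change is its size over the root of its F. P-values were adjusted by Benjamini-Hochberg over all genes tested, and genes were called at an adjusted p under 0.05. CPM used the TMM-adjusted library size. The steps were tested on simulated data. Members and gene lists were chosen with earlier results of these data known; 4 of the lists were added after values were seen. Genes named were the 12 largest rises and the 12 largest falls with at least 5 CPM in a group and no overlap between groups, the 4 with the smallest adjusted p, the 4 with the smallest interaction p, and list members; interaction calls are also named, and any other gene is marked in the text. Symbols and coordinates came from RefSeq on TAIR10.1, which held 20489 of the genes tested. Same-numbered libraries did not deviate together, so no block was used. Alternatives were other filters, RLE scaling, library size alone, DESeq2 1.42.0, other sets of libraries, a replicate block, a minimum fold and each library left out. The minimum fold was applied to the counts of all genes called, and not to single genes or lists. Figures used matplotlib 3.10.9.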

Additional observations from a re-analysis of the deposited data

Results flagged for a closer look

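For 11 genes the log2 fold change at 60 mM over 6 mM KNO3 differed between long-term and shift mock roots, tested as an interaction in edgeR with adjusted p-values over all genes. The difference is given as long-term minus shift. The genes CSD1, CSD2 and CCS had a more positive effect in long-term roots, with differences of 1.61, 1.02 and 0.91. FSD1, the bHLH factor AT1G71200 and YSL2, a carrier of metal chelates, had a more negative one, with -0.99, -2.02 and -0.66. YSL2 was the only one of these 6 not called in long-term roots, with a log2 fold change of -0.12 there and 0.54 in shift roots, and its counts are uncertain because AT5G24390 lies on the opposite strand, as are those of CSD1. In the fits without 1 library all 6 kept the call.

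The other 5 calls were each lost in at least 1 such fit. COPT2 (-1.42, adjusted p = 0.0111) was lost without 60 mM long-term replicate 3 (0.0693) and when the 12 mock libraries alone were fitted (0.187). AT4G08570, of the heavy metal transport family (-1.18, adjusted p = 0.0111), was lost without 60 mM long-term replicate 2 (0.0766) or 3 (0.0838) and without 6 mM long-term replicate 3 (0.0537). FRO5 (-1.67, adjusted p = 0.0111) was lost without 60 mM long-term replicate 2 (0.0608) or 3 (0.0693), 60 mM shift replicate 2 (0.0531) and 6 mM shift replicate 2 (0.0518), and when those libraries alone were fitted (0.0742). ABCG39, an ABC transporter (-2.57, adjusted p = 0.0111), was lost without 60 mM long-term replicate 1 (0.0530), 2 (0.0608) or 3 (0.0838) and without 60 mM shift replicate 2 (0.0629). AT2G19970, of the CAP family (-1.55, adjusted p = 0.0186), was lost in 8 of the 12 such fits, with adjusted p up to 0.105. Shifted seedlings differed from long-term ones in mesh, transfer and fresh medium together, and these cannot be told apart.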

How the results depend on the processing

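The count of 1391 genes called at 60 mM over 6 mM KNO3 in long-term roots lay between 887 and 1167 when 1 library was left out, and was 270 where a 2-fold change was also asked for. It was 1265 without the filter on low counts, 1364 with RLE scaling, 1417 with library size alone, 1454 with DESeq2 and 1942 in a fit of only the 6 libraries. With library size alone 34.2% of calls were rises, against 41.8%. In shift roots the 1685 calls lay between 1031 and 1459 without 1 library, and 276 passed the 2-fold limit. The interaction count of 11 lay between 6 and 15 without 1 library, and DESeq2 called 28. The causes of these differences were not tested. Of 161 genes followed, 104 kept their call in all alternatives other than the 2-fold limit, which was not applied to single genes, and 0 reversed. Same-numbered libraries did not deviate together (correlations of 0.033, -0.014 and -0.022 in long-term roots), so the numbers do not pair the samples, and a fit with the replicate block called 1399 genes. With 3 libraries a group, small changes of weakly expressed genes could not be resolved at this depth.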
